A study of Rattus norvegicus and Mus musculus with 18 samples.

Results

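The epidermal differentiation complex is a cluster of genes on mouse chromosome 3 whose products build the cornified surface of the skin. Its members were taken from the mouse table by symbol: every protein-coding gene whose name starts with Lce, Sprr or S100a followed by a digit, plus Flg, Flg2, Lor, Ivl, Hrnr, Rptn, Tchh, Tchhl1, Crct1, Crnn, Kprp and Lelp1. This gave 62 of the 49548 genes in the table. The 62 comprised 21 late cornified envelope (LCE) genes, 15 small proline-rich (SPRR) genes, 7 fused-type S100 genes, 5 other envelope genes and 14 S100A genes. All lay on chromosome 3 within 3.05 Mb, at chr3:90511034-93564643 (mm10).

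Wound dermis and wound epidermis of adult mouse skin were compared, with 3 libraries of each. Both were taken 1 day after the scab detached, a stage that the study's description ties to the regrowth of hair follicles in mouse wounds. Both were homogenized whole before RNA extraction, so each library is a mixture of cell types. The labels give no strain, genotype, age in weeks or agent, and they do not say whether the 3 libraries of a tissue came from separate animals. The p-values therefore measure the spread between these libraries, which may be technical. RNA was measured by SMART-seq2, and the deposited unit is TPM, the share of transcripts in a library that a gene supplies, corrected for transcript length.

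During cornification, keratinocytes of the upper epidermis replace their plasma membrane with a cross-linked protein shell, the cornified envelope. Involucrin forms part of an early scaffold, loricrin is the main reinforcing protein, and LCE and SPRR proteins are joined to them by transglutaminases. Filaggrin and its fused-type relatives combine a calcium-binding S100 domain with long repeats, and filaggrin packs keratin filaments. Most of the smaller S100A proteins, in contrast, are calcium-binding signalling proteins, and they are used by many cell types. In human skin, LCE1 genes are known from undamaged epidermis, and LCE3 and SPRR genes from injured or inflamed epidermis.

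The families differ in how alike their members are, which bears on how well short reads can be told apart, and the stretches shown here were chosen for that. All are coding sequence of the GENCODE mouse annotation on mm10, read 5′ to 3′ in the sense of the gene. In the Lce1 and Sprr2 sets, which give the first 90 coding bases, capitals mark bases that differ from the first sequence of the set. The Lce1 pair, at chr3:92647076-92647165 and chr3:92669164-92669253 on the minus strand, differed by 1 base.
Lce1a1: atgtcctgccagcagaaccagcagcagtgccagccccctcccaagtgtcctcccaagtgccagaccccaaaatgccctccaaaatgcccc
Lce1a2: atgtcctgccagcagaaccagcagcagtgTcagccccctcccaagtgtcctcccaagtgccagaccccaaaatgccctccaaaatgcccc
The Sprr2 set lies on the plus strand at chr3:92219092-92219181, chr3:92253905-92253994, chr3:92340254-92340343 and chr3:92386632-92386721. Sprr2a2 differed from Sprr2a1 by 0 bases, Sprr2d by 10 and Sprr2h by 9.
Sprr2a1: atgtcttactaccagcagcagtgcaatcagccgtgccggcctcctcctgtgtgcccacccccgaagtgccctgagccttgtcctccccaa
Sprr2a2: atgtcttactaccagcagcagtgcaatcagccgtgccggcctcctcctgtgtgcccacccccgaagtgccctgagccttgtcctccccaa
Sprr2d: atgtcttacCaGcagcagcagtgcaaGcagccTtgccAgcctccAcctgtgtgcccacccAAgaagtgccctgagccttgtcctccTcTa
Sprr2h: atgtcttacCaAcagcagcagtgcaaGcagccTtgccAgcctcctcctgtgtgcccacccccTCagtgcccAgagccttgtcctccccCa

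Lor, Sprr1b and Ivl show the repeated, low-complexity composition typical of the complex. In each stretch of 90 coding bases, capitals mark the codons of the amino acid that the gene is rich in. Loricrin, at chr3:92081828-92081917 on the minus strand (coding bases 61 to 150), had 23 glycine codons here.
Lor: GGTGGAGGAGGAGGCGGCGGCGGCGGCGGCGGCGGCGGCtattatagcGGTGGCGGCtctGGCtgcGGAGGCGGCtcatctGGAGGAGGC
Sprr1b, at chr3:92437343-92437432 on the minus strand (coding bases 136 to 225), had 12 proline codons in a regular spacing.
Sprr1b: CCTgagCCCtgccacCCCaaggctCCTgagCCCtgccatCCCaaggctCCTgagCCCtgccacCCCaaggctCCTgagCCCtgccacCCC
Involucrin, at chr3:92572313-92572402 on the minus strand (coding bases 355 to 444), had 23 glutamine codons.
Ivl: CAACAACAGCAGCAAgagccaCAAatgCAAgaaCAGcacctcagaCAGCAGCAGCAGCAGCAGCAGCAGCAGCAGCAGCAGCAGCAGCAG
Over the whole coding sequence, glycine made up 55.3% of the codons of Lor, and glutamine made up 26.7% of those of Ivl. Proline had a median of 39.5% in the 11 Sprr2 genes and 31.3% in the 2 Sprr1 genes. Cysteine had a median of 21.4% in the 14 Lce1 genes and 16.3% in the 6 Lce3 genes. Over the other 926 protein-coding genes of chromosome 3 with a coding sequence, the medians were 6.31% for glycine, 4.21% for glutamine, 5.13% for proline and 1.97% for cysteine.

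One dermis library stood apart before any gene was tested. Across the genes tested, dermis replicate 2 correlated with the epidermis libraries at 0.741 to 0.799 (Pearson r of log2(TPM + 1) across genes, which are not independent replicates), and the other dermis libraries did so at 0.548 to 0.658. The 62 members together supplied 0.95% of its TPM, against 0.19% in dermis replicate 1 and 0.151% in dermis replicate 3. The epidermis libraries drew 4.56%, 5.44% and 3.46% of their TPM from the members. The fibroblast, endothelial and macrophage markers matched the tissue labels. All 10 fibroblast, all 8 endothelial and all 9 macrophage markers were called lower in wound epidermis, against 39.3% of all genes tested. The collagen gene Col1a1 ran from 23600 to 38002 TPM in dermis and from 5.11 to 51.48 TPM in epidermis. Dermis replicate 2 also held more of the epidermal keratin Krt10, at 5394 TPM, than dermis replicates 1 and 3, at 209 and 127 TPM. The basal keratin Krt14 was at 1605, 2471 and 174 TPM in dermis replicates 1 to 3, so it was high in replicate 1 too. Fold changes of the abundant envelope, LCE and SPRR genes are given with and without dermis replicate 2. In whole tissue, a change in the share of cells of a type and a change in the RNA per cell cannot be told apart.

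**Figure D1:**
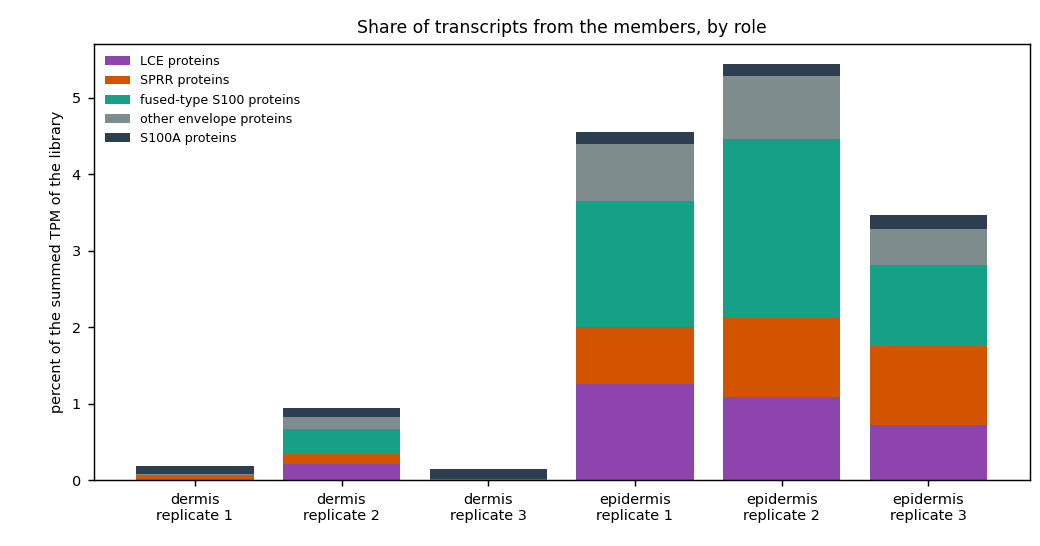
Share of each library's summed TPM (percent, vertical axis) that came from the members, stacked by role, for the 3 wound dermis and 3 wound epidermis libraries. Dermis replicate 2 reached 0.95%, against 0.19% and 0.151% in the other dermis libraries and 3.46% to 5.44% in epidermis. The shares include Flg, the most abundant member, whose annotated length was not checked.

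The complex was mostly higher in wound epidermis, except for part of the S100A group. Of the 62 members, 56 passed the filter of at least 1 TPM in at least 3 of the 6 libraries. Of these 56, 48 were called higher in epidermis, 5 were called lower and 3 were not called (limma, Benjamini-Hochberg adjusted over 15982 genes, threshold 0.05). Over all 15982 genes, 17% were called higher and 39.3% lower, 56.3% in either direction. A member that passed the filter only through epidermis had to differ, so these counts describe the members and do not serve as a test of the complex. The median log2 fold change (on the log2(TPM + 1) scale, epidermis over dermis, as throughout) was 4.84 over the 56 members and -0.42 over all genes tested. The ranges of the tissues did not overlap for 53 tested members, 48 higher in epidermis and 5 lower, against 20.8% and 45.3% of all genes.

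The 6 members outside the test were low or absent in every library. S100a2 was listed at 0 in all 6 libraries, and S100a5 reached at most 0.18 TPM. Lelp1, a late envelope-like gene, reached at most 0.37 TPM, Sprr4 at most 0.73 TPM and Sprr3 at most 1.98 TPM. Tchhl1, a relative of trichohyalin, reached at most 1.39 TPM, with all epidermis libraries (0.59, 1.39 and 0.55 TPM) above the dermis libraries (0, 0.04 and 0.07 TPM).

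**Figure D2:**
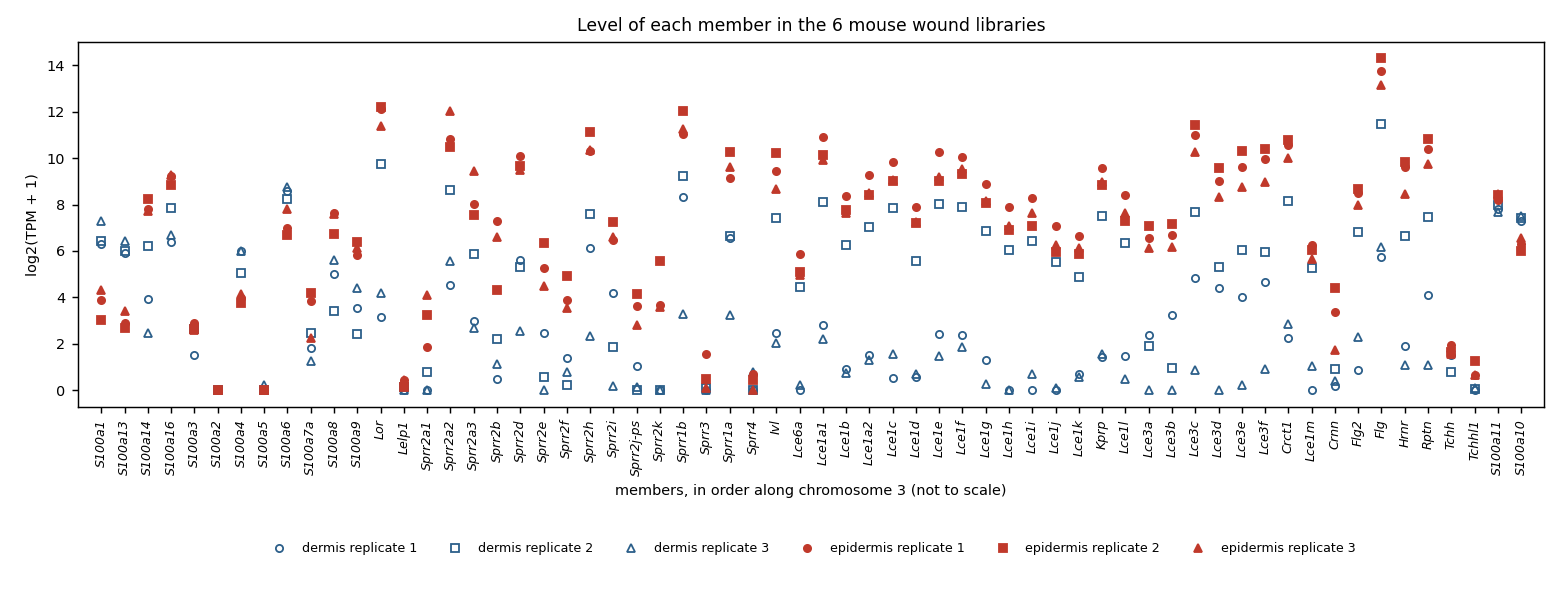
Level of each of the 62 members as log2(TPM + 1) (vertical axis) in the 3 wound dermis libraries (open symbols) and the 3 wound epidermis libraries (filled symbols), in order along chromosome 3. The S100A genes at both ends differ in both directions. From Lor to Rptn, apart from Lelp1, Sprr3 and Sprr4, the epidermis libraries lie above the dermis libraries. For most Lce1, fused-type and other envelope genes, dermis replicate 2 (open squares) lies between the epidermis libraries and the other dermis libraries.

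The envelope scaffold and its reinforcing proteins were among the most abundant members. Lor (ENSMUSG00000043165, chr3:92080271-92083142, minus strand), the gene of loricrin, was at 4433, 4753 and 2686 TPM in epidermis replicates 1 to 3 and at 7.97, 849.62 and 17.13 TPM in dermis replicates 1 to 3. It ranked 27th of all genes by mean epidermis TPM. Its log2 fold change was 6.21 ± 1.55 (SE; limma, adjusted p = 0.0119) and 8.23 without dermis replicate 2. All epidermis libraries lay above all dermis libraries, and dermis replicate 2 alone exceeded 20 TPM among the dermis libraries.

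Ivl (ENSMUSG00000049128, chr3:92570902-92573735, minus strand), the gene of involucrin, was at 693.47, 1184.24 and 407.39 TPM in epidermis and at 4.53, 170.23 and 3.14 TPM in dermis. The groups did not overlap, and the epidermis libraries differed 2.91-fold among themselves. Its log2 fold change was 5.46 ± 1.34 (limma, adjusted p = 0.0112) and 7.18 without dermis replicate 2, and it lost its call without dermis replicate 1.

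Crct1 was at 1532, 1780 and 1037 TPM in epidermis and at 3.69, 281.48 and 6.2 TPM in dermis, a log2 fold change of 6.06 ± 1.43 (limma, adjusted p = 0.00933), or 7.93 without dermis replicate 2. Kprp, which encodes a proline-rich keratinocyte protein, was at 754.82, 463.75 and 494.71 TPM in epidermis and at 1.69, 180.04 and 1.92 TPM in dermis, a log2 fold change of 5.63 ± 1.52 (limma, adjusted p = 0.0163), or 7.64 without dermis replicate 2. Kprp lost its call without dermis replicate 1 or 3. All 4 tested genes of this group were thus called higher, and in each of them dermis replicate 2 was the highest dermis library.

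Among the fused-type S100 genes, 5 of 6 tested were called higher. Flg (ENSMUSG00000102439, chr3:93273523-93293686, plus strand), the gene of profilaggrin, was the most abundant member, at 13983, 20227 and 9107 TPM in epidermis and at 51.63, 2883.73 and 70.12 TPM in dermis. It ranked 6th of all genes in epidermis. The lowest epidermis library was above the highest dermis library, and the log2 fold change was 5.95 ± 1.43 (limma, adjusted p = 0.0101), or 7.81 without dermis replicate 2. The annotation used here splits Flg into partial coding models, although profilaggrin is known as a very large repetitive protein. The longest model that begins with a start codon has 1071 coding bases, and models without a start codon were not compared. TPM divides by the length of the model, and the sources used here do not give the authors' annotation. The rank of Flg therefore rests on a length that was not checked. The shares of TPM from all members include Flg and have the same limit. Its fold change between libraries does not share that limit.

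Rptn, the gene of the envelope protein repetin, was at 1351, 1808 and 852.23 TPM in epidermis and at 16.2, 175.29 and 1.12 TPM in dermis. Hrnr, the gene of hornerin, was at 782.11, 908.03 and 353.68 TPM in epidermis and at 2.71, 99.36 and 1.11 TPM in dermis. Flg2 was at 360.8, 404.61 and 249.04 TPM in epidermis and at 0.83, 112.26 and 3.91 TPM in dermis. In all of them every epidermis library exceeded every dermis library. The log2 fold changes were 6.10 ± 1.41 for Rptn, 6.10 ± 1.35 for Hrnr and 5.05 ± 1.36 for Flg2 (limma, adjusted p = 0.00863, 0.0072 and 0.0164). Without dermis replicate 2 they were 7.73, 7.82 and 6.79. Flg2 lost its call without dermis replicate 1, dermis replicate 3 or epidermis replicate 2.

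Crnn, the gene of cornulin, was the lowest of those called, with 9.29, 20.11 and 2.35 TPM in epidermis and 0.14, 0.87 and 0.3 TPM in dermis (log2 fold change 2.68 ± 0.62; limma, adjusted p = 0.00891). Tchh, the gene of trichohyalin, which is known from the inner root sheath of the hair follicle, was the exception. It was at 2.89, 2.14 and 1.91 TPM in epidermis and at 1.86, 0.73 and 2.5 TPM in dermis, and the groups overlapped. Its log2 fold change was 0.35 ± 0.29 (limma, adjusted p = 0.347). Under quantile normalization it was 1.16 with an adjusted p of 0.025.

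All 21 LCE genes were called higher, with log2 fold changes from 3.78 to 6.42 and a median of 5.30. Their groups did not overlap in any of the 21. Lce3c had the largest fold change of the LCE genes in the fit of all 6 libraries, at 2034, 2777 and 1216 TPM in epidermis and 27.94, 203.99 and 0.83 TPM in dermis (6.42 ± 1.51; limma, adjusted p = 0.00932). It was 8.03 without dermis replicate 2, where Lce1c at 8.28 was above it, and with a pseudocount of 0.1 Lce1h at 7.49 was above Lce3c at 6.77. Lce6a had the smallest in the same fit, at 57.53, 33.62 and 30.65 TPM in epidermis and 0, 20.53 and 0.16 TPM in dermis (3.78 ± 1.11; limma, adjusted p = 0.0232), but without dermis replicate 2 it was 5.22 and Lce3b at 5.07 was below it. For Lce6a, dermis replicate 2 lay closer to the lowest epidermis library than to the other dermis libraries, and the call was lost without dermis replicate 1 or 3 or epidermis replicate 1 or 2.

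Lce1a1 was the most abundant Lce1 gene, at 1921, 1139 and 970.83 TPM in epidermis and 5.91, 278.23 and 3.62 TPM in dermis (log2 fold change 5.96 ± 1.44; limma, adjusted p = 0.0104; 7.83 without dermis replicate 2). Lce1f followed Lce3f among the LCE genes by mean level, at 1072, 639.35 and 736.01 TPM in epidermis and 4.26, 240.68 and 2.59 TPM in dermis (5.59 ± 1.47; limma, adjusted p = 0.0148; 7.52 without dermis replicate 2). Lce3f was at 996.38, 1366 and 507.6 TPM in epidermis and 24.11, 61.37 and 0.87 TPM in dermis (5.95 ± 1.19; limma, adjusted p = 0.00471; 7.01 without dermis replicate 2). The Lce1 genes shared 1 pattern over the dermis libraries, with replicate 2 far above both others, whereas Lce3f had a sizeable level in replicate 1 too. The remaining Lce1 genes ran from 3.87 for Lce1m to 6.01 for Lce1c, and the remaining Lce3 genes from 5.16 for Lce3a to 6.14 for Lce3e.

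All 13 tested SPRR genes were called higher, with a median log2 fold change of 4.49. Sprr1b, the gene of a cross-bridging envelope protein known to rise in stressed epithelia, was at 2102, 4188 and 2426 TPM in epidermis and at 317.72, 607.35 and 8.81 TPM in dermis. Every epidermis library was above every dermis library, but dermis replicates 1 and 2 were both well above replicate 3. Its log2 fold change was 4.49 ± 1.41 (limma, adjusted p = 0.03), 5.63 without dermis replicate 2, and the call was lost without any 1 of the epidermis libraries. Sprr1a was at 560.7, 1225 and 778.21 TPM in epidermis and at 93.7, 100.5 and 8.36 TPM in dermis (4.18 ± 0.90; limma, adjusted p = 0.00635; 4.77 without dermis replicate 2).

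Within Sprr2, Sprr2h was at 1268, 2236 and 1316 TPM in epidermis and at 69.5, 191.04 and 3.97 TPM in dermis (5.25 ± 1.21; limma, adjusted p = 0.00843; 6.37 without dermis replicate 2). Sprr2d was at 1106, 819.86 and 710.16 TPM in epidermis and 47.75, 38.94 and 4.93 TPM in dermis (5.26 ± 0.76; limma, adjusted p = 0.00117; 5.67 without dermis replicate 2). Which of these 2 genes had the larger fold change thus depended on dermis replicate 2. Sprr2a1 was at 2.6, 8.42 and 16.19 TPM in epidermis and 0, 0.71 and 0 TPM in dermis (2.80 ± 0.55; limma, adjusted p = 0.00446). With dermis at or near 0 this value is set largely by the pseudocount, and it was 5.17 with a pseudocount of 0.1 and 1.31 with 5. Sprr2k was listed at 0 in all 3 dermis libraries and was at 11.59, 46.83 and 10.91 TPM in epidermis, so its fitted fold change depends on the pseudocount and is not given.

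Sprr2a2 was at 1802, 1430 and 4194 TPM in epidermis and at 22.19, 393.07 and 46.13 TPM in dermis, with a log2 fold change of 4.87 ± 1.00 (limma, adjusted p = 0.00528), or 6.06 without dermis replicate 2. Its level and that of Sprr2a1 cannot be separated securely, because their coding sequences were 100% identical, as the printed stretches show, and the annotated genes overlap. In 1 annotated transcript per gene, 93.5% of the 86-base windows for Sprr2a1, 100% for Sprr2a2 and 42.4% for Sprr2a3 also occurred in another member. Summed over Sprr2a1, Sprr2a2 and Sprr2a3, the level was 2065, 1623 and 4909 TPM in epidermis and 29.19, 451.74 and 51.48 TPM in dermis, or 2866 ± 1783 against 177.5 ± 237.8 TPM (mean ± SD, n = 3 each). Summed levels did not overlap between the tissues.

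Shared sequence was less in the other families than in Sprr2a1 and Sprr2a2, but Lce3f, with 44.5% of its 86-base windows shared, was above Sprr2a3. Only exact matches between the 62 members were counted. Near matches and copies outside the members, such as the pseudogene Sprr2g, were left out, so these shares can understate the ambiguity. Of the 43-base windows, the shorter of the read lengths given in the labels, the median share also found in another member was 26.1% in Lce1, 42.1% in Lce3 and 13.4% in Sprr2. With 86-base windows it was 3.73%, 30.2% and 2.43%. The shares were 0% at both lengths for the Sprr1, S100A, fused-type and other envelope genes. For Flg this covers only a partial transcript of 1076 bases. Lce3d and Lce3f were 99.3% identical in coding sequence, so values of single Lce3 genes are uncertain. The Lce3 sum was 4526, 6465 and 2624 TPM in epidermis and 99.8, 372.75 and 1.88 TPM in dermis, which did not overlap.

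**Figure D3:**
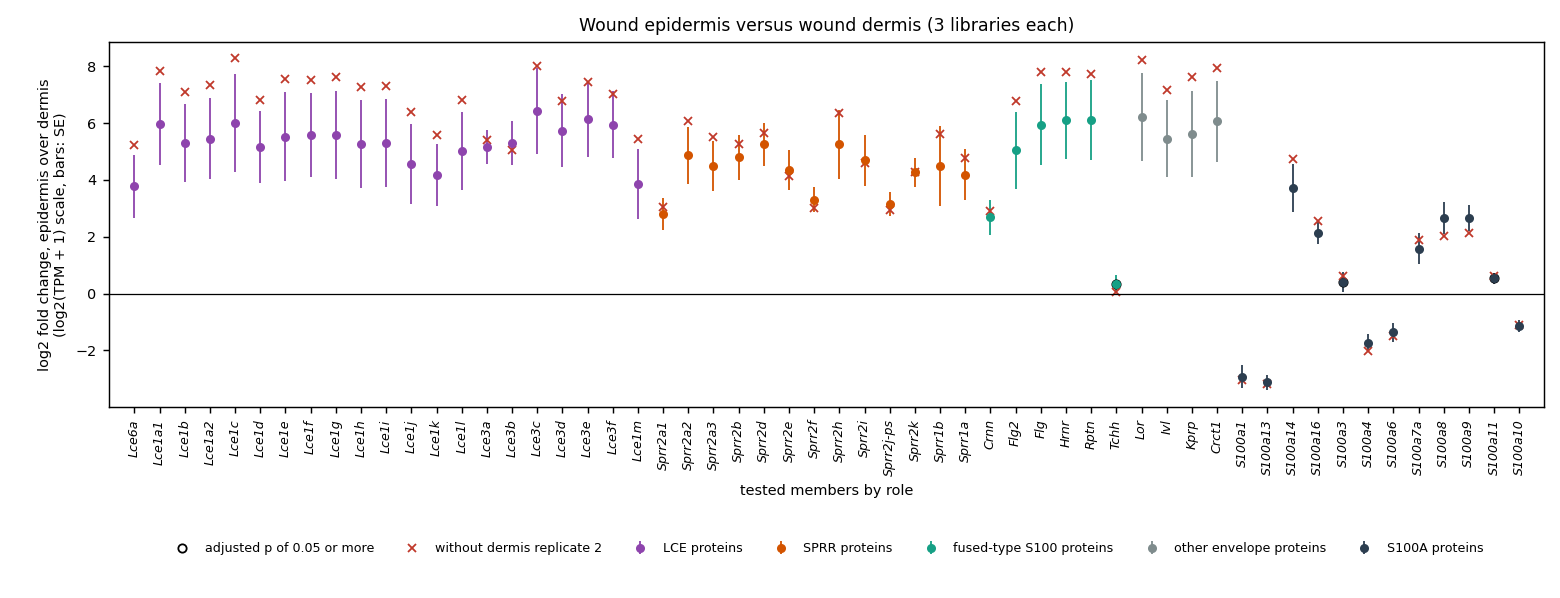
Log2 fold change of wound epidermis over wound dermis on the log2(TPM + 1) scale (points, with bars for the SE) for the 56 tested members by role, with the value obtained without dermis replicate 2 as a cross and open rings for members that were not called. Among the members other than S100A genes only Tchh lies near 0, and without dermis replicate 2 the Lce1 genes move to between 5.45 and 8.28.

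The S100A genes split by member. Of 12 tested, 5 were called higher, 5 lower and 2 were not called, against 17% higher and 39.3% lower over all genes tested. The share called lower was thus near that of all genes. The summed S100A level was 0.11%, 0.124% and 0.131% of TPM in dermis and 0.164%, 0.15% and 0.182% in epidermis. S100a16 was the most abundant by mean level, at 605.75, 454.97 and 625.97 TPM in epidermis and 83.28, 231.26 and 103.43 TPM in dermis (log2 fold change 2.14 ± 0.39; limma, adjusted p = 0.00328). S100a14 rose the most, at 226.28, 301.68 and 212.65 TPM in epidermis and 14.42, 74.08 and 4.53 TPM in dermis (3.72 ± 0.84; limma, adjusted p = 0.00801). The groups did not overlap for either gene.

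The other S100A genes called higher are named here after their values were seen. S100a8 and S100a9 encode the subunits of calprotectin, which is known from neutrophils and from stressed keratinocytes. S100a8 was at 200.94, 105.03 and 189.85 TPM in epidermis and 30.92, 9.74 and 47.62 TPM in dermis (2.65 ± 0.56; limma, adjusted p = 0.00596). S100a9 was at 55.36, 81.7 and 68.64 TPM in epidermis and 10.62, 4.32 and 19.84 TPM in dermis (2.66 ± 0.47; limma, adjusted p = 0.00294). For both, dermis replicate 2 was the lowest of the dermis libraries, the opposite of the envelope genes, and the fold changes were 2.02 and 2.14 without it.

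Neutrophil markers gave no uniform change beside S100a8 and S100a9. Of 12 listed, 3 passed the filter: Cxcr2 was called higher in epidermis (1.30; limma, adjusted p = 0.00139), Csf3r was called lower (-3.10; limma, adjusted p = 0.000105) and Il1r2 was not called. Summed over all 12 listed, the level ran from 30.2 to 52.4 TPM in dermis and from 65.7 to 77.4 TPM in epidermis. Most of the epidermis sum came from Cxcr2 (26.98, 31.9 and 28.76 TPM) and Il1r2 (49.94, 34.87 and 36.7 TPM). Csf3r was at 8.69, 5.49 and 11.48 TPM in dermis and at most 0.14 TPM in epidermis. Among the untested markers, Ly6g and Elane were listed at 0 in all 6 libraries, Cxcr1 reached at most 0.06 TPM, and Ngp and Camp at most 0.1 TPM. Mmp8 was at 4.95, 0.11 and 2.88 TPM in dermis and at most 0.03 TPM in epidermis. Mpo was at 0.81, 1.18 and 2.15 TPM in dermis and at most 0.1 TPM in epidermis. Retnlg reached 2.06 TPM and Ltf 1.25 TPM, both in dermis. The part of neutrophils in the S100a8 and S100a9 values was not tested.

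S100a7a, a relative of human psoriasin, was at 13.21, 17.46 and 3.73 TPM in epidermis and 2.56, 4.54 and 1.36 TPM in dermis. The groups overlapped, and its call (1.58 ± 0.55; limma, adjusted p = 0.0435) was lost without dermis replicate 1, dermis replicate 3, epidermis replicate 1 or epidermis replicate 2. It was also lost with a pseudocount of 0.1, without the filter, and with the 50 most abundant genes left out of the total.

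The 5 members called lower in epidermis were all S100A genes, and none of their groups overlapped. Of all genes tested, 39.3% were called lower and 45.3% were lower in epidermis without overlap. S100a1, known for its part in muscle calcium handling, was at 13.79, 7.18 and 18.96 TPM in epidermis and 76.97, 86.21 and 155.67 TPM in dermis (-2.93 ± 0.40; limma, adjusted p = 0.00095). S100a13, which takes part in the release of fibroblast growth factor 1, fell the most, at 6.5, 5.3 and 9.53 TPM in epidermis and 58.83, 62.57 and 86.27 TPM in dermis (-3.13 ± 0.27; limma, adjusted p = 0.000101). Their genes are neighbours on opposite strands at chr3:90511034-90514392 and chr3:90514435-90524581, and S100a14 and S100a16, both higher, come next along the chromosome.

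S100a4, known from mesenchymal cells and macrophages, was at 14.46, 12.34 and 16.85 TPM in epidermis and 62.69, 32.14 and 62.08 TPM in dermis (-1.73 ± 0.30; limma, adjusted p = 0.00269). S100a6, the gene of calcyclin, was at 126.07, 101.64 and 225.95 TPM in epidermis and 381.26, 303.96 and 432.24 TPM in dermis (-1.36 ± 0.33; limma, adjusted p = 0.0102). S100a10, whose product pairs with annexin A2, was at 78.29, 62.65 and 93.18 TPM in epidermis and 156.73, 171.11 and 181.9 TPM in dermis (-1.13 ± 0.21; limma, adjusted p = 0.00363). All 5 were called in each fit that left out 1 library. Beside them, the summed fibroblast markers ran from 44875 to 70253 TPM in dermis and from 54.4 to 166.3 TPM in epidermis. Summed macrophage markers ran from 1429.5 to 2656.8 TPM in dermis and from 68.7 to 80.4 TPM in epidermis. Their part in the lower S100A values was not tested.

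S100a11, a calcium-binding protein found in many cell types, was the most even of the abundant S100A genes, at 291.8, 341.36 and 347.23 TPM in epidermis and 223.5, 250.92 and 204.33 TPM in dermis. The groups did not overlap, yet the gene was not called (0.53 ± 0.19; limma, adjusted p = 0.0508). With median-of-ratios scaling, which moved the median of all genes from -0.42 to -0.03, its fold change was 1.00 with an adjusted p of 0.0044. S100a3, known from the hair cuticle, was at 6.53, 5.16 and 5.11 TPM in epidermis and 1.84, 5.26 and 5.63 TPM in dermis, with overlapping groups (0.42 ± 0.35; limma, adjusted p = 0.337). It was 1.11 under quantile normalization, with an adjusted p of 0.032. The annotated S100a3 gene spans S100a2, and the sources used here do not say whether reads were counted by strand.

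Dermis replicate 2 did not carry all families equally. Taking each gene's dermis level as a percentage of its mean epidermis level, the median over the 14 Lce1 genes was 0.381%, 34.2% and 0.277% in dermis replicates 1, 2 and 3, and the range in replicate 2 was 20.7% to 60.0%. The 6 Lce3 genes had medians of 3.14%, 6.83% and 0.0108%. The ranges of the Lce1 and Lce3 families in dermis replicate 2 did not meet, since the highest Lce3 value there was 10.2%. In dermis replicate 1 the order was the other way round, with all Lce3 genes at 1.39% or more and all Lce1 genes at 0.795% or less.

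Other envelope genes had medians of 0.275%, 21.9% and 0.42%, and fused-type genes 0.804%, 17.3% and 0.823%. In dermis replicate 2 the fused-type genes ran from 8.22% for Crnn to 33.2% for Flg2, across the upper Lce3 and lower Lce1 values. The 2 Sprr1 genes had medians of 10.9%, 16.4% and 0.64%, and the 11 Sprr2 genes 4.33%, 3.95% and 0.561%. Dermis replicate 1 exceeded replicate 2 in 0 of 14 Lce1 genes, 2 of 6 Lce3 genes (Lce3a and Lce3b) and 5 of 11 Sprr2 genes (Sprr2d, Sprr2e, Sprr2f, Sprr2i and Sprr2j-ps). The S100A genes had medians of 50.7%, 85.3% and 81.5%.

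The same measure outside the complex gave medians of 2.71%, 20.1% and 0.774% for 26 other cornification genes and 16.7%, 45.0% and 3.51% for 8 basal keratinocyte markers. Dermis replicate 1 therefore held basal keratinocyte and Sprr1 transcripts at a larger median percentage than Lce1 transcripts. In dermis replicate 3 the medians of all families other than S100A were below 1%, and that of the basal keratinocyte markers was 3.51%. These percentages describe 3 libraries, and what set them apart was not tested.

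**Figure D4:**
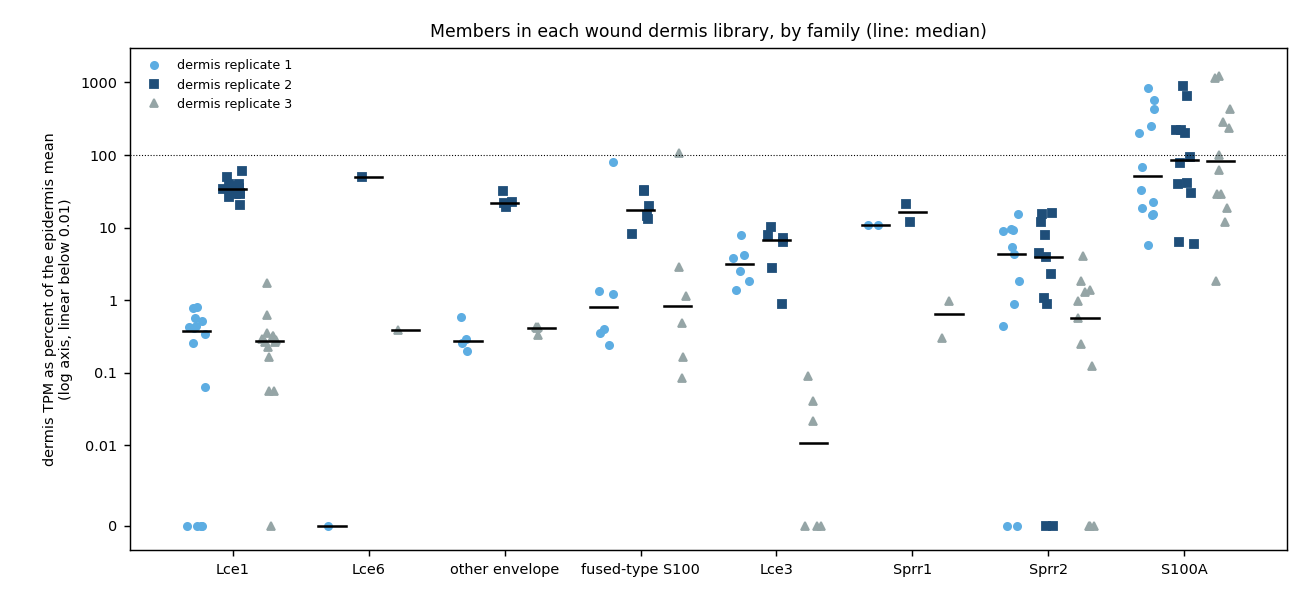
Level of each tested member in the 3 wound dermis libraries as a percentage of its mean level in wound epidermis (vertical axis, log scale, linear below 0.01), by family, with a line at each median. In dermis replicate 2 the Lce1 genes lie between 20.7% and 60.0% and the Lce3 genes at or below 10.2%, while in dermis replicate 1 all Lce3 genes (1.39% or more) lie above all Lce1 genes (0.795% or less).

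The families also differed among the epidermis libraries. All 14 Lce1 genes were highest in epidermis replicate 1, and their log2 ratio of replicate 2 over replicate 1 ran from -1.24 to -0.24 with a median of -0.82. All 6 Lce3 genes were highest in replicate 2, with ratios from 0.45 to 0.71. Both Sprr1 genes were highest in replicate 2 too, at 0.99 and 1.13. The Lce1 and Lce3 genes thus moved in opposite directions between these libraries. In each of them every gene of both families was above every dermis library, with the smallest gap at Lce1m, at 48.62 TPM in epidermis replicate 3 and 37.72 TPM in dermis replicate 2.

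Replicate 3 was below replicate 1 for all Lce1 genes (median -0.75), all Lce3 genes (median -0.72), all 6 fused-type genes (median -0.64) and all 4 other envelope genes (median -0.66). Sprr1 genes were not below it, at 0.21 and 0.47. Sprr2 genes scattered most, from -0.80 to 2.26, and Sprr2a1, Sprr2a2 and Sprr2a3 were highest in replicate 3. Basal keratinocyte markers were mixed. Krt14, at 7525, 5551 and 14970 TPM in epidermis replicates 1 to 3, and Krt5, at 1302, 843.07 and 2036 TPM, were highest in replicate 3. Krt15, at 753.59, 223.71 and 459.44 TPM, and Col17a1, at 83.14, 35.36 and 71.85 TPM, were highest in replicate 1. The contribution of basal cells to these differences was not tested, and genes of 1 family share sequence, so they are not independent points.

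**Figure D5:**
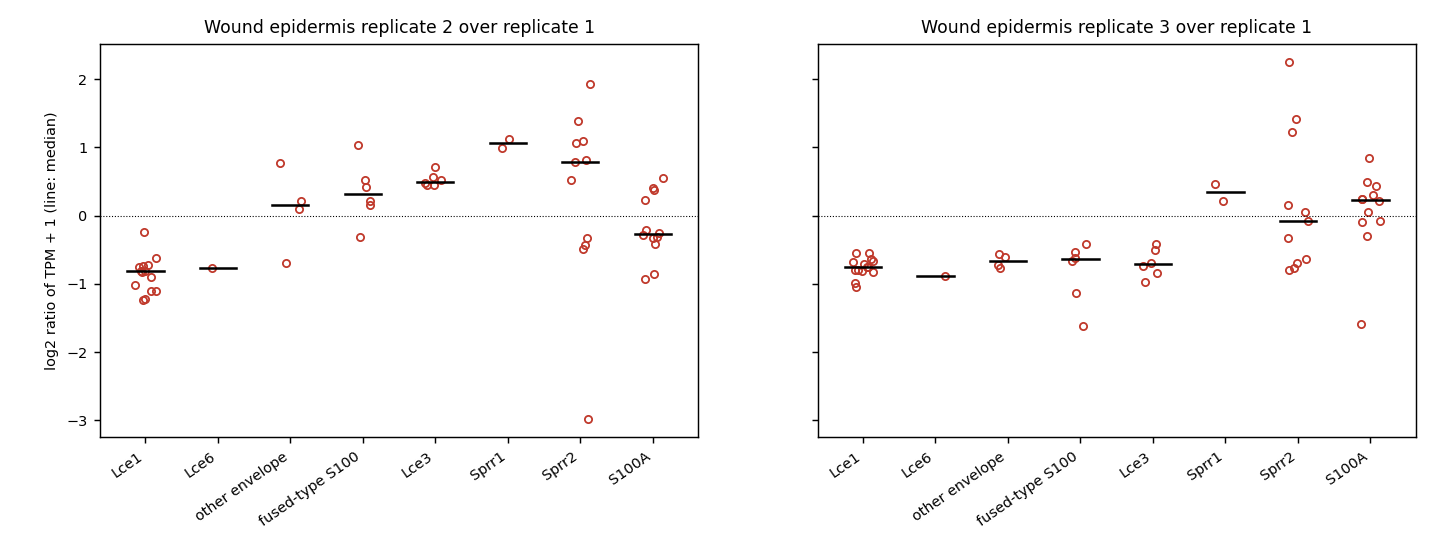
Log2 ratio of TPM + 1 between wound epidermis libraries (vertical axis), replicate 2 over replicate 1 on the left and replicate 3 over replicate 1 on the right, for each tested member by family, with a line at each median. On the left all Lce1 genes lie below 0 and all Lce3 and Sprr1 genes above it. On the right the Lce1, Lce3, fused-type and other envelope genes all lie below 0.

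How firmly each family was called depended on these libraries. Leaving out 1 library at a time, 35 of the 53 called members kept their call in every fit that tested them, and 18 lost it at least in 1 fit. The 18 were 12 of the 14 Lce1 genes, Lce6a, Sprr1b, S100a7a, Flg2, Ivl and Kprp. None of the 53 lost its call without dermis replicate 2, whereas 17 did without dermis replicate 1 and 16 without dermis replicate 3. The number called higher was 48 without dermis replicate 2, 31 without dermis replicate 1 and 32 without dermis replicate 3. No Lce3 or Sprr2 gene lost its call in a fit that tested it, although Sprr2a1, Sprr2k and Crnn could be tested only when no epidermis library was left out.

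Other genes of cornification were also higher in epidermis. All 26 on the list were called higher, against 17% of all genes tested, with a median log2 fold change of 4.38. The list was chosen with earlier results known, and some of its genes, such as Krt2, passed the filter only through epidermis. The count therefore describes the list and is no test of it. Those with the smallest adjusted p were the keratin Krt2 (1.65 ± 0.21; limma, adjusted p = 0.000651), the protease Blmh, which helps degrade filaggrin (3.42 ± 0.53; limma, adjusted p = 0.00156), the deiminase Padi1 (2.26 ± 0.36; limma, adjusted p = 0.00189) and the transglutaminase Tgm3, which cross-links envelope proteins (2.99 ± 0.49; limma, adjusted p = 0.00199). Krt2 was low in all libraries, at 1.7, 2.56 and 2.96 TPM in epidermis and 0, 0.24 and 0 TPM in dermis. Of 8 basal keratinocyte markers, 5 were called higher and 3 were not called. Those with the smallest adjusted p were Trp63 (2.73), Krt14 (3.27), Krt15 (4.44) and Col17a1 (2.61), with adjusted p of 0.0137, 0.0232, 0.0244 and 0.026 (limma).

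Of 22 transcription regulators linked to keratinocyte differentiation, 15 were called higher, 4 lower and 3 were not called. Over all genes tested, 17% were called higher and 39.3% lower. Cebpb was at 606.61, 672.49 and 560.7 TPM in epidermis and 104, 173.05 and 95.04 TPM in dermis (2.34 ± 0.27; limma, adjusted p = 0.000423). Cebpa was at 119.47, 131.98 and 98.99 TPM in epidermis and 19.59, 35.44 and 13.36 TPM in dermis (2.41 ± 0.35; limma, adjusted p = 0.00119). Klf4, a factor needed for the skin barrier in mice, was at 533, 595.98 and 386.48 TPM in epidermis and 108.7, 145.29 and 65.99 TPM in dermis (2.28 ± 0.33; limma, adjusted p = 0.00121). The groups did not overlap for any of these factors.

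Arnt and Ahr, which encode partners of the aryl hydrocarbon receptor complex, were lower in epidermis (-1.52 ± 0.19 and -1.09 ± 0.27; limma, adjusted p = 0.000539 and 0.0119). Satb1, a chromatin organizer linked to this gene cluster in mouse epidermis, was at 1.19, 2.09 and 3.25 TPM in epidermis and 8.98, 4.8 and 6.09 TPM in dermis (-1.28 ± 0.32; limma, adjusted p = 0.012). Maf was lower as well (-0.76 ± 0.19; limma, adjusted p = 0.0117). Nfe2l2, Fosl2 and Jund were not called.

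Between the outermost members lay 13 other protein-coding genes that the rule did not take. Of these, 7 were tested and all 7 were called higher, against 17% of all genes tested. Their median log2 fold change was 4.15, and 4 of the 13 were listed at 0 in every library. The 3 with the smallest adjusted p were 2310046K23Rik (4.59 ± 0.78; limma, adjusted p = 0.00245), Pglyrp4 (4.15 ± 0.79; limma, adjusted p = 0.00384) and 2210017I01Rik (4.29 ± 0.91; limma, adjusted p = 0.00602). Pglyrp4, which encodes a peptidoglycan recognition protein that binds bacterial cell walls, was at 89.4, 103.15 and 75.84 TPM in epidermis and at 6.23, 12.9 and 0.29 TPM in dermis. All 7 had the direction of the envelope genes. Some, such as 2210017I01Rik (0.51, 12.43 and 0 TPM in dermis), needed epidermis libraries to pass the filter. The count therefore describes these genes and is no test of the region.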

How the data were processed

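RNA of 3 mouse wound dermis and 3 mouse wound epidermis libraries was measured by SMART-seq2. Per the labels' protocols, libraries started from 10 or 100 ng of RNA (12 or 10 cycles of pre-amplification) and were read from 1 end over 86 or 43 bases; the sources used here do not assign these to libraries. The authors deposited TPM values per gene; Bowtie 1.0.0, RSEM 1.2.31 and mm10 are named per the submitters' processing notes. Every library summed to the same TPM total within rounding, so the depth is unknown and intervals for counting error are not given. The number of genes at 1 TPM or more was 15958 to 16257 in dermis and 13117 to 14012 in epidermis.

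Symbols, positions and coding sequences were taken by Ensembl identifier from GENCODE M21, which paired 49289 of 49548 genes with a symbol. S100a7a was counted as S100a plus digits, and Sprr2j-ps because GENCODE M21 calls it protein-coding. Log2(TPM + 1) of genes reaching 1 TPM in 3 or more libraries was fitted with limma 3.58.1 in R 4.3.3 with the mean-variance trend, and p-values were Benjamini-Hochberg adjusted over 15982 genes. The fit was tested on simulated data. Similarity was the percentage of 43- or 86-base windows of 1 transcript per member found in any transcript of another member. That transcript was the one with the longest coding sequence that begins with a start codon. The identity of aligned coding sequences was computed with Biopython 1.88.

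Members and lists were chosen with earlier results of these data known. Per role, the text names the 4 tested members with the highest mean TPM, every member called lower or not called, and the largest and smallest fold change in the LCE, SPRR and S100A groups; per outside list, up to 4 genes with the smallest adjusted p and up to 4 called the other way; and 3 neighbours. Crnn, Sprr2k, the other S100A genes called higher and the ends of ranges were named after their values were seen. A planned search for promoter motifs was not run, because mouse promoter sequences were not used here.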

Additional observations from a re-analysis of the deposited data

How the results depend on the processing

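Beside the 8996 genes called, the other settings called between 6454 (filter of 5 TPM, 11080 genes tested) and 9343 (the 50 most abundant genes left out of the total). The number of members called higher ran from 40 (no filter) to 50 (quantile normalization), and 5 were called lower in every setting. No member changed direction under any alternative. Of called genes, 30.2% were higher, against 47.2% under median-of-ratios scaling and 52.8% under quantile normalization, which moved the median of all genes from -0.42 to -0.03 and 0.08. Under those scalings the 5 lower S100A genes were still called, with S100a10 at -0.66 and -1.05 and S100a6 at -0.89 and -1.52. Without the filter 9 members lost their call, and with a pseudocount of 0.1 there were 2. S100a11 was also called with a pseudocount of 0.1 (adjusted p = 0.044), the filter of 5 TPM (0.048) and limma without trend (0.047), the range over the settings that keep all libraries being 0.0044 to 0.14.

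Leaving out 1 library, 5288 (dermis replicate 3) to 8546 genes were called, with 5427 without dermis replicate 1. Members called higher ran from 31 (without dermis replicate 1) to 48 (without dermis replicate 2), and the median fold change of all members tested from 4.01 to 5.62. Fewer genes pass the filter with 5 libraries. With the tested genes held fixed, an alternative chosen after seeing the data, 7415 to 8714 genes were called, and 33 to 49 members were called higher. The labels do not say whether same-numbered libraries of the tissues came from 1 animal. Deviations from the group means correlated at -0.14, 0.09 and 0.19 between same-numbered libraries, and not every library correlated best with its own number. With 3 libraries per tissue these values cannot settle whether the libraries were paired. With the number as a replicate block, 8404 genes, 48 members higher and 5 lower were called. The depth is unknown, and levels near 1 TPM limit what can be said of Tchh and of those of the 6 untested members that were detected.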

Other observations

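Sprr2g, which the annotation holds as a polymorphic pseudogene and which is therefore not a member, had the pattern of the Sprr2 genes. It was at 38.94, 105.13 and 35.89 TPM in wound epidermis replicates 1 to 3 and at 2.43, 3.19 and 0.11 TPM in wound dermis replicates 1 to 3, and the groups did not overlap. The processed pseudogenes Sprr2c-ps and S100a11-ps were listed at 0 in all 6 libraries.

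Of 7 Langerhans and T cell markers, Epcam was called higher in epidermis (3.53; limma, adjusted p = 0.00573), Ptprc was called lower (-2.66; limma, adjusted p = 0.000275) and 5 were not called. Of the skeletal muscle and adipocyte markers, 2 of 8 were tested and both were called higher, Mylpf (1.58; limma, adjusted p = 0.00303) and Fabp4 (2.11; limma, adjusted p = 0.0164). Of the melanocyte and Schwann cell markers, S100b was called lower in epidermis (-1.62; limma, adjusted p = 0.0039). S100b encodes an S100 protein outside the complex and was at 1.49, 1.84 and 4.53 TPM in dermis and 0.21, 0.05 and 0.05 TPM in epidermis.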
